A study of Mus musculus with 6 samples.

Results

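Immediate early genes are the transcripts that a cell makes within minutes of a stimulus, and 10 of them are described here in LT-HSCs, the long-term blood stem cells of the bone marrow, of mice with and without latexin. The 10 were Fos, Fosb, Jun, Junb, Egr1, Nr4a1, Nr4a2, Atf3, Dusp2 and Cyr61, the last listed under its current symbol Ccn1. They were chosen by name with their difference between the genotypes on these same arrays already known, so every value of that difference is a description and carries no test. Each of the 10 had 1 probe set, and they stand among 19938 genes with a probe set of a single symbol. In these pools each of the 10 had a higher mean in Lxn-/- than in WT, by 0.14 to 0.79 on the log2 scale, and each had its lowest value in the same WT pool, replicate 3.

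The study measured 6 Affymetrix mouse Gene ST arrays, 3 for WT mice with an intact latexin gene (Lxn) and 3 for Lxn-/- mice, in which exons 2 to 4 are deleted and the protein is lacking. Both genotypes were on the C57BL/6 background, female and 8 to 12 weeks old, and no group received a treatment. Bone marrow cells were sorted as lacking lineage markers and CD34, carrying Sca1 and c-Kit, and lacking a marker written as Flt2 in the design text. Each array held RNA of a pool of nearly 100000 such cells from 10 to 20 mice, so a pool is 1 sample and the spread between arrays is the spread between pools. The values are log2 expression values normalized by robust multi-array average (RMA), and a difference of 1 is a doubling of signal.

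The products of these genes form a first wave of gene regulation. FOS and JUN proteins pair through leucine zippers into the transcription factor AP-1, ATF3 belongs to the same zipper family, and EGR1 and the NR4A receptors are DNA-binding proteins of other families. The wave is switched on by growth factor, calcium, cyclic AMP and stress signals through factors already present in the cell, such as SRF and CREB, and it is shut down by phosphatases such as DUSP2 and by rapid mRNA decay. The same genes are known to be induced when tissue is dissociated and cells are sorted, and Egr1 and the Nr4a genes are also known as regulators of stem cell quiescence.

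The promoters of these genes are shown first. RefSeq promoter sequences of build GRCm38.p6 were available here for 9 of the 10 genes, and the 250 bases before the start site were searched on both strands. The half-site of the cyclic AMP response element, TGACG, the core that CREB and related zipper proteins read, was found in 7 of the 9 windows, against 17.8% of 32851 promoter windows of the same length. Nr4a1 and Nr4a2 each held 4 copies, Fos held 2, and Fosb, Junb, Atf3 and Ccn1 held 1 each. GC content ran from 54.8% to 80.0% in the 9 windows, against a median of 52.4% over all windows. The 7 stretches with a half-site are printed 5′ to 3′ on the strand of the gene and end at the base before the start site. Capitals mark TGACG or its reverse CGTCA, and the TATA box TATAAA or its reverse.

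Nr4a1, chr15:101266596-101266845, plus strand: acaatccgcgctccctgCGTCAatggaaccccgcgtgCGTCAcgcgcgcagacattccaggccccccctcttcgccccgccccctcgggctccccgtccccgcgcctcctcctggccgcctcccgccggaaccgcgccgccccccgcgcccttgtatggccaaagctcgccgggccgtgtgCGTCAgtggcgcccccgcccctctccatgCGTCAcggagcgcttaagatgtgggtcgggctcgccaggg
Nr4a2, chr2:57124004-57124253, minus strand: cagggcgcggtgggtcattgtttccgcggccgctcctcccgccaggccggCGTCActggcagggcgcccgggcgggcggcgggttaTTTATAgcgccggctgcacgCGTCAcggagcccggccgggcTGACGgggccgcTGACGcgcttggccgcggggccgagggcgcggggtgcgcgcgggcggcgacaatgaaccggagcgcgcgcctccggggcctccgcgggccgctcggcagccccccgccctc
Fos, chr12:85473730-85473889, plus strand: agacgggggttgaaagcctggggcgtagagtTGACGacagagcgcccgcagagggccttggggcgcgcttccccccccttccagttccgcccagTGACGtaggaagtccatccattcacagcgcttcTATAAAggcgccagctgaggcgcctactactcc
Fosb, chr7:19310046-19310165, minus strand: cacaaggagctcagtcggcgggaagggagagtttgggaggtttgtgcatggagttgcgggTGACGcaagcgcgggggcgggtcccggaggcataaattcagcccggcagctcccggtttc
Junb, chr8:84978749-84978868, minus strand: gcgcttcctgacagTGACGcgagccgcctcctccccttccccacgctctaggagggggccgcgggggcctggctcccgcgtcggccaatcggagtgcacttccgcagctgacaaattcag
Atf3, chr1:191183334-191183453, minus strand: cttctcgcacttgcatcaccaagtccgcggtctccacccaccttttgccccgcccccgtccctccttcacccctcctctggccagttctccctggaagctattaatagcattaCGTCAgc
Ccn1, chr3:145649986-145650105, minus strand: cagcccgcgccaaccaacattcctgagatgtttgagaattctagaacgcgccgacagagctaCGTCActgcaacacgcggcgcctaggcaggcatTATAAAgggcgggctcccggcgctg

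The TATA box was found in 3 of the 9 windows, against 12.4% of all windows. Counting -1 as the base before the start site, it lay at -33 to -28 in Fos, at -25 to -20 in Ccn1 and, on the opposite strand, at -164 to -159 in Nr4a2. An EGR site, GCGNGGGCG, was found in Dusp2, Fosb, Nr4a1 and Nr4a2, or 4 of 9, against 4.70% of all windows. The full element TGACGTCA, which contains the half-site, the AP-1 site TGANTCA and the CArG box read by SRF were in 0 of the 9 windows, against 1.55%, 6.75% and 1.47% of all windows. These matches describe letters in a short window, and binding was not measured. The shares over all windows were not matched for GC content, which was higher in the 9 windows than the median of all. Any link between these letters and the values on the arrays was not tested.

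As a check of the labels, Lxn stood at 8.99, 9.09 and 9.55 on the WT arrays and at 8.66, 8.78 and 8.78 on the Lxn-/- arrays, both in order of replicate number. The Lxn-/- values lay below the WT values, with a difference of -0.47, or -0.30 without WT replicate 3, but no source used here places the probes relative to the deleted exons, and probes outside the deletion would check nothing. Of 15 LT-HSC markers 13 were measured, and all 13 lay in every array above 6.93, a background level taken as the 95th percentile over receptor genes for odorants and pheromones. Of all 19938 genes 13426 did so, as did 14 of 14 measured B and plasma cell markers and 10 of 10 erythroid markers. The count therefore does not single out LT-HSCs. The Lxn-/- values of Lxn itself also lay above that level. Kit ran from 12.80 to 12.96, Mecom from 10.54 to 10.86 and Procr from 10.03 to 10.45. Transcripts of Cd34 (13.01 to 13.30) and Flt3 (11.59 to 12.20), whose proteins mark cells downstream of LT-HSCs, were also well above that level, so on RNA the pools did not lack these markers of later cells. On the first principal component, which held 38.8% of the variance, WT replicate 3 had the highest score, 23.3. The other 5 arrays were spread as well, at -10.6 and 2.6 in WT replicates 1 and 2. In Lxn-/- the scores were -12.6, 7.97 and -10.7, in order of replicate number.

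In a test of every probe set with a symbol, 0 of 23410 probe sets differed between genotypes at an adjusted p of 0.05 (limma, Benjamini-Hochberg), a share of 0%, and the lowest adjusted p was 0.993. With a variance trend in limma the number was also 0. Before adjustment, 914 probe sets (3.90%) had a p under 0.05. None of the 10 genes therefore passed, and their values are descriptions of 6 pools.

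**Figure D1:**
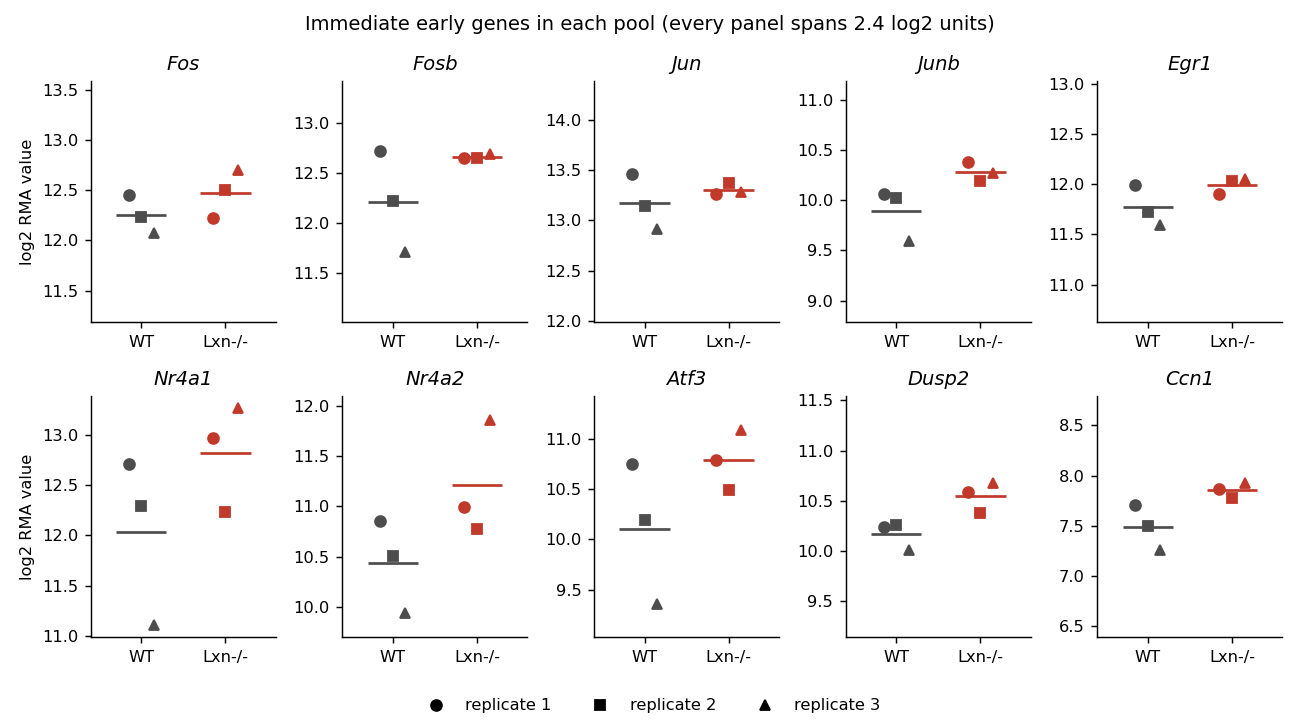
Log2 RMA value of each of the 10 genes (vertical axis) in the WT and Lxn-/- pools (horizontal axis), with 1 point per array, marker shapes for replicates 1 to 3 and a bar at each genotype's mean. WT replicate 3, the dark triangle, is the lowest point in all 10 panels, and in Junb, Dusp2 and Ccn1 the 3 Lxn-/- points lie above the 3 WT points.

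The AP-1 genes differed by 0.14 to 0.44. Fos, the founding member of its family, was 12.45, 12.24 and 12.07 in WT and 12.22, 12.50 and 12.70 in Lxn-/-, here and in what follows in order of replicate number. The genotypes overlapped, since WT replicate 1 lay above Lxn-/- replicate 1, and the difference was 0.22 (SE 0.14), from a WT mean of 12.25 ± 0.19 (SD, n = 3) to a Lxn-/- mean of 12.47 ± 0.24 (SD, n = 3). Its paralog Fosb was 12.71, 12.21 and 11.71 in WT and 12.64, 12.65 and 12.69 in Lxn-/-. The Lxn-/- pools were within 0.044 of each other whereas the WT pools ran from 11.71 to 12.71, and the highest value of all was that of WT replicate 1. The difference of Fosb was 0.44 (SE 0.21), the WT mean being 12.21 ± 0.50 (SD, n = 3) and the Lxn-/- mean 12.66 ± 0.024 (SD, n = 3).

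Jun, the partner that can also pair with itself, was 13.46, 13.14 and 12.91 in WT and 13.26, 13.38 and 13.29 in Lxn-/-. WT replicate 1 was again the highest pool, and all 3 Lxn-/- values fell inside the WT range. Its difference was the smallest of the 10 at 0.14 (SE 0.13), or 1.10-fold. Junb, a family member with weaker activating function than Jun, was 10.06, 10.02 and 9.59 in WT and 10.38, 10.19 and 10.27 in Lxn-/-. Here the genotypes did not overlap, and the means of 9.89 ± 0.26 (SD, n = 3) for WT and 10.28 ± 0.094 (SD, n = 3) for Lxn-/- were 0.39 apart (SE 0.13). The gap between the highest WT pool and the lowest Lxn-/- pool was 0.13.

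Atf3, a stress-induced repressor of the same zipper class, varied more than the FOS and JUN genes. It was 10.75, 10.20 and 9.36 in WT and 10.79, 10.49 and 11.09 in Lxn-/-. WT replicate 1 lay among the Lxn-/- pools and WT replicate 3 lay 1.11 below the mean of the other WT pools. The means were 10.10 ± 0.70 (SD, n = 3) and 10.79 ± 0.30 (SD, n = 3), a difference of 0.69 (SE 0.32) or 1.61-fold.

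The nuclear receptor genes had the widest differences, and Nr4a1 also had the widest spread within WT. Nr4a1, which encodes the orphan receptor Nur77, was 12.71, 12.29 and 11.10 in WT and 12.96, 12.24 and 13.27 in Lxn-/-. Lxn-/- replicate 2 lay below WT replicates 1 and 2, and WT replicate 3 lay 1.39 below the mean of those pools. The difference was 0.79 (SE 0.41) or 1.73-fold, the WT mean being 12.03 ± 0.83 (SD, n = 3) and the Lxn-/- mean 12.82 ± 0.53 (SD, n = 3). Nr4a2, which encodes the related receptor Nurr1, was 10.86, 10.51 and 9.94 in WT and 10.99, 10.77 and 11.86 in Lxn-/-. Its Lxn-/- mean rested largely on replicate 3, the highest pool, and the other Lxn-/- pools lay close to WT replicate 1. The means of Nr4a2, 10.43 ± 0.47 (SD, n = 3) for WT and 11.21 ± 0.58 (SD, n = 3) for Lxn-/-, were 0.77 apart (SE 0.31) or 1.71-fold.

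The zinc finger gene Egr1, an activator induced by growth factors, was 11.99, 11.72 and 11.60 in WT and 11.90, 12.03 and 12.05 in Lxn-/-. WT replicate 1 fell inside the Lxn-/- range, and the difference was 0.23 (SE 0.11). Dusp2, a nuclear phosphatase that inactivates MAP kinases, was 10.24, 10.26 and 10.01 in WT and 10.59, 10.38 and 10.67 in Lxn-/-. Its genotypes did not overlap, and the difference was 0.38 (SE 0.10), the WT mean being 10.17 ± 0.14 (SD, n = 3) and the Lxn-/- mean 10.55 ± 0.15 (SD, n = 3). Ccn1, which encodes a secreted matricellular protein, was 7.71, 7.50 and 7.26 in WT and 7.86, 7.78 and 7.93 in Lxn-/-. It did not overlap either, by a gap of 0.071, and the difference was 0.37 (SE 0.11), the WT mean being 7.49 ± 0.22 (SD, n = 3) and the Lxn-/- mean 7.86 ± 0.076 (SD, n = 3).

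As a group, 10 of 10 genes had a higher mean in Lxn-/-, where 44.0% of all 19938 genes did, and the median difference was 0.38 against -0.013 over all genes. The genotypes did not overlap for 3 of the 10, Junb, Dusp2 and Ccn1, against 3.30% of all genes in the same direction. Since the genes were named with this contrast known, these shares support nothing further. The pool that overlapped was mostly WT replicate 1, which lay above the lowest Lxn-/- value for 7 of the 10 genes, against 2 of 10 for WT replicate 2. Without WT replicate 1 the count of genes with no overlap was 8 of 10, against 8.70% of all genes. It was 5 without Lxn-/- replicate 1 (5.76% of all genes) and 6 without Lxn-/- replicate 2 (9.70% of all genes). Removing an array can only keep or raise such a count.

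WT replicate 3 had the lowest value for 10 of the 10 genes, where 19.1% of all genes had their lowest value in that array. For 9 of the 10, its distance from the mean of the other WT pools was wider than the gap between those pools. Being lowest already places it outside that gap, so this count in part restates the order. The share of all genes was not computed. The distance was widest for Nr4a1 (-1.39), Atf3 (-1.11), Fosb (-0.75) and Nr4a2 (-0.75), and narrowest for Dusp2 (-0.24). At the upper end, Lxn-/- replicate 3 had the highest value for 7 genes, WT replicate 1 for Fosb and Jun, and Lxn-/- replicate 1 for Junb.

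**Figure D2:**
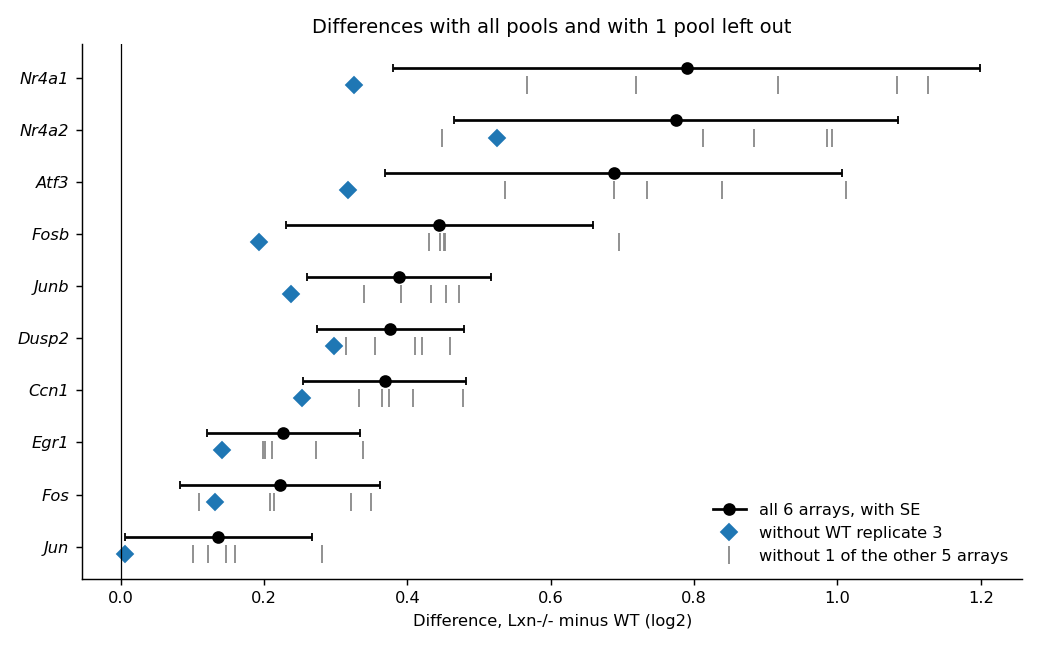
Difference between Lxn-/- and WT (horizontal axis, log2) for each of the 10 genes (vertical axis), with all 6 arrays and its SE (black), without WT replicate 3 (blue diamonds) and without each of the other 5 arrays (grey ticks). Without WT replicate 3 all 10 differences stay above 0, and that of Jun is 0.0056.

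How much of the difference this pool made was read by leaving it out. Without WT replicate 3 the mean remained higher in Lxn-/- for 10 of 10 genes, against 9345 of all 19938 genes. The median difference of the group went from 0.38 to 0.25. Because this pool was the lowest for each of the 10, leaving it out had to lower every difference, and only the size was open. Leaving out any other single array gave medians from 0.36 to 0.47, so no other array lowered the median as far. The share of a gene's difference that was lost with WT replicate 3 had a median of 39.7% over the 10 genes, and for 7 of 10 the difference shrank by more than 1.5 times. The genes without overlap were 3 of 10 after this removal too, against 6.14% of all genes. That count could not change, because WT replicate 3 was the lowest array for each of the 10 genes.

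Jun lost 95.9% of its difference and stood at 0.0056 without WT replicate 3. Nr4a1 lost 58.9%, from 0.79 to 0.32, Fosb lost 56.6%, from 0.44 to 0.19, and Atf3 lost 53.9%, from 0.69 to 0.32. These 4 genes lost more than 50% of their difference. Fos went to 0.13, Egr1 to 0.14 and Junb to 0.24, with losses of 40.6%, 37.7% and 38.7%. The least dependent were Dusp2, which lost 21.1% and stood at 0.30, Ccn1, which lost 31.2% and stood at 0.25, and Nr4a2, which lost 32.2% and stood at 0.53.

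A single Lxn-/- pool mattered as well. For Nr4a2, leaving out Lxn-/- replicate 3 lowered the difference to 0.45, further than leaving out WT replicate 3, and for Fos the same removal gave 0.11. Without both WT replicate 3 and Lxn-/- replicate 3, a setting chosen after the values were seen, the mean was still higher in Lxn-/- for 10 of 10 genes with a median of 0.17. In that setting Jun (0.016), Fos (0.019) and Nr4a1 (0.10) were near 0, and the highest were Junb (0.24), Dusp2 (0.23) and Ccn1 (0.22). When the middle value of each genotype replaced its mean, the median difference was 0.36.

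The genes varied in a similar order over the arrays. The correlation over 6 arrays was positive for 45 of 45 pairs of the 10 genes, from 0.50 between Jun and Dusp2 to 0.98 between Nr4a1 and Atf3, with a median of 0.89. These pairs share the same 6 arrays, the low WT replicate 3 and the difference between genotypes, so they are a description. In Lxn-/- replicate 2 the genes parted: it was the lowest Lxn-/- pool for Nr4a1, Nr4a2, Atf3, Junb, Dusp2 and Ccn1 but the highest for Jun.

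Genes outside the lists were ranked by how closely they followed the 10. Over 1604 named genes with an SD of at least 0.2 over the 6 arrays, the mean of the 10 genes correlated most with Per1 (r = 0.996), a light- and cyclic AMP-inducible clock gene, and Zc3h12a (r = 0.990), which encodes an RNase that degrades inflammatory mRNAs. Next came Adamts10 (0.989), Mir18 (0.986), Cd69 (0.982), an early activation marker of leukocytes, Rgs1 (0.982), a regulator of G protein signals, Lncpint (0.982) and Skil (0.982). Per1 was 11.27, 10.92 and 10.52 in WT and 11.31, 11.21 and 11.49 in Lxn-/-. WT replicate 3 was thus its lowest pool as well, and its difference was 0.43 (SE 0.18), or 0.24 without that pool. Without it Zc3h12a, Adamts10, Mir18, Cd69, Lncpint and Skil, at 0.28 to 0.48 with all arrays, stood at 0.11 to 0.28. These likenesses are over 6 arrays each and carry no test.

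**Figure D3:**
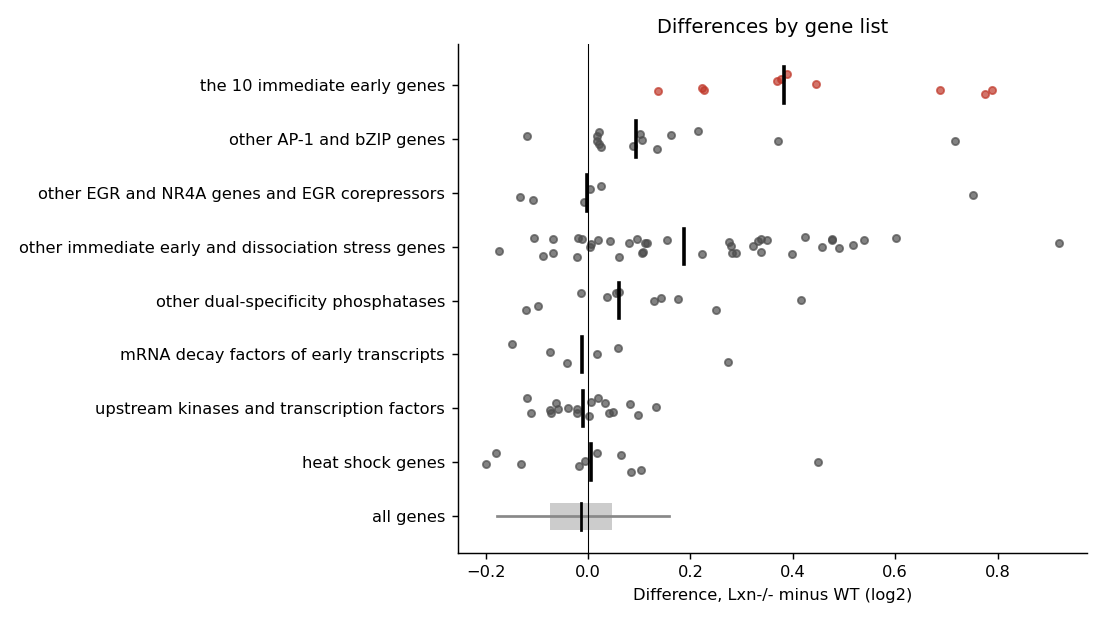
Difference between Lxn-/- and WT (horizontal axis, log2) by gene list (vertical axis), with 1 point per gene and a bar at each list's median; for all genes the line spans the 5th to 95th percentile and the box the 25th to 75th. The 10 genes have a median of 0.38, the other immediate early and dissociation stress genes 0.19, and the upstream kinases and transcription factors -0.010.

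Other immediate early genes were described from 3 lists, none of whose genes passed the test. Of 62 genes 60 were measured, 48 had a higher mean in Lxn-/- and 12 a lower one, with a median of 0.11, or 0.067 without WT replicate 3. The count of higher genes depended on scaling, at 40 of 60 after quantile normalization and 37 of 60 with equal array medians. WT replicate 3 was the lowest array for 37 of the 60 genes. The genotypes did not overlap for 5 of them, all higher in Lxn-/-: Ier2 (0.28), Btg1 (0.22), Nfkbiz (0.42), Id1 (0.28) and Bhlhe40 (0.48). Of all genes 3.30% were higher with no overlap, and these 5 of 60 were singled out after their values were seen.

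Among other AP-1 and related zipper genes, 13 of 14 had a higher mean in Lxn-/-, with a median of 0.094. Without WT replicate 3 it was 11 of 14 with a median of 0.031. Fosl2, a FOS family gene, was 10.27, 10.05 and 9.23 in WT and 10.76, 9.95 and 10.99 in Lxn-/-, a difference of 0.72 (SE 0.32) that was 0.41 without WT replicate 3. The small MAF genes Maff and Mafk differed by 0.37 and 0.16, the cyclic AMP-responsive gene Crem by 0.21 and Jund by 0.13. These became 0.18, 0.080, 0.13 and 0.059 without WT replicate 3. Nfe2l2, the regulator of antioxidant genes, differed by -0.12, or -0.039 without that pool. Thus Fosl2 had the order of pools seen in Nr4a1, with low values in WT replicate 3 and Lxn-/- replicate 2.

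The third NR4A gene and the other EGR genes parted. Nr4a3 was 7.85, 7.74 and 6.72 in WT and 8.39, 7.47 and 8.70 in Lxn-/-, a difference of 0.75 (SE 0.37), or 0.39 without WT replicate 3. Its pools were ordered as for Nr4a1, with an overlap at Lxn-/- replicate 2. Egr4 differed by -0.11 and the EGR corepressor gene Nab1 by -0.13, which was 0.0022 without WT replicate 3. Egr2 (-0.0083), Egr3 (0.025) and the corepressor gene Nab2 (0.0045) were near 0, and stood at -0.14, -0.058 and 0.065 without WT replicate 3. In addition the sign of Egr3 and Nab2 turned with quantile normalization (-0.034 and -0.0075) and with equal array medians (-0.020 and -0.041).

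In the list of other immediate early and dissociation stress genes, 32 of 40 had a higher mean in Lxn-/-, with a median of 0.19 that was 0.095 without WT replicate 3. Ptgs2, which encodes cyclooxygenase 2, was 9.96, 9.92 and 8.79 in WT and 10.71, 9.55 and 11.17 in Lxn-/-. With 0.92 (SE 0.44), its difference was the highest of all 19938 genes, and it was 0.54 without WT replicate 3. Tiparp differed by 0.60 (SE 0.27), the kinase genes Plk3 and Plk2 by 0.52 and 0.49, and Klf4, a zinc finger regulator, by 0.48. Without WT replicate 3 these 4 became 0.28, 0.26, 0.28 and 0.24. The neutrophil chemokine gene Cxcl2 differed by 0.54 (SE 0.45) and by 0.014 without WT replicate 3.

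Genes upstream of the response and genes of mRNA decay had medians near the -0.013 of all genes. Upstream kinases and transcription factors had a median of -0.010, with 9 of 18 measured genes higher. The values with the largest size were those of Rps6ka3 (0.13), a kinase that phosphorylates CREB, Map2k4 (-0.12, or -0.039 without WT replicate 3), Map2k1 (-0.11) and Mapk8 (0.097), the gene of JNK1. Of the mRNA decay genes 3 of 6 were higher, and their median was -0.012. Zfp36, itself an immediate early gene, differed by 0.27 (SE 0.15), or 0.13 without WT replicate 3, and Zfp36l1 by -0.15. Khsrp (-0.074) and Hnrnpd (0.059) stood at -0.026 and 0.033 without that pool.

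Other dual-specificity phosphatases, which like DUSP2 act on MAP kinases, had a median of 0.060 with 8 of 11 higher, above the 75th percentile of all genes (0.047). Dusp5 differed by 0.42 (SE 0.23), Dusp4 by 0.25, Dusp10 by 0.18 and Dusp1, the best known immediate early phosphatase, by 0.14 (SE 0.11). Without WT replicate 3 Dusp5 stood at 0.22 and Dusp10 at 0.074. Dusp1 was 13.20, 13.17 and 13.13 in WT and 13.07, 13.39 and 13.47 in Lxn-/-. It overlapped, because Lxn-/- replicate 1 was the lowest pool, and WT replicate 3 lay close to the other WT pools. The genotypes did not overlap for 1 of the 11, Dusp6 (0.13), and for 1 of the 18 upstream genes, Map2k6 (0.082), against 3.30% of all genes. Both were singled out after their values were seen.

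Heat shock genes, another response to handling, were balanced, with 5 of 10 higher and a median of 0.0051. Hspa1a, the inducible HSP70 gene, was 9.80, 8.92 and 8.37 in WT and 10.41, 8.57 and 9.46 in Lxn-/-. Both genotypes spanned more than a log2 unit and overlapped, and the difference of 0.45 had an SE of 0.48. It was 0.12 without WT replicate 3. Hspb1 (-0.20), Hsph1 (-0.18) and Hspd1 (-0.13, or -0.048 without WT replicate 3) had lower means in Lxn-/-. Hspb1 and Hsph1, 2 of 10, did not overlap, against 5.49% of all genes that were lower with no overlap.

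Of the lists of other blood cells, neutrophil markers had an order of arrays like that of the 10 genes. The 17 neutrophil markers, led in size of difference by the alarmin genes S100a8 and S100a9, had a mean level of 10.86, 10.41 and 9.11 in WT and 10.51, 9.56 and 11.24 in Lxn-/-. WT replicate 3 was thus lowest and Lxn-/- replicate 3 highest, as for the mean of the 10 genes. 13 of 17 had a higher mean in Lxn-/-, with a median of 0.46, and this became -0.18 with 2 of 17 higher without WT replicate 3. S100a8 was 11.50, 10.67 and 8.42 in WT and 11.08, 9.94 and 11.82 in Lxn-/-, a difference of 0.75 that was -0.14 without WT replicate 3. For 15 of the 17 markers every value was above 6.93. The other 2 were Mmp8, at 5.70 in WT replicate 3 and 6.22 in Lxn-/- replicate 2, and Ly6g, a surface marker of neutrophils, at 6.71 and 6.72 in the same arrays, so both were at background level there. In bulk samples fewer cells of a type cannot be told apart from less RNA per cell.

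**Figure D4:**
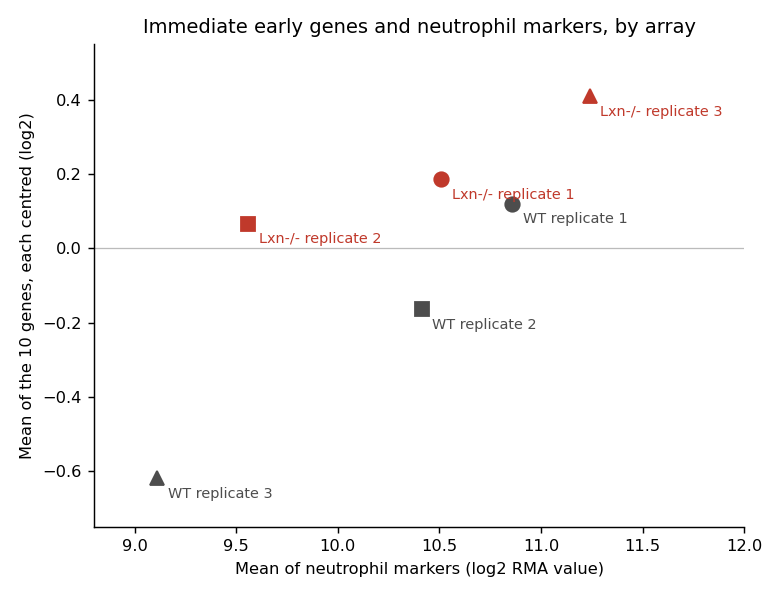
Mean of the 10 genes, each centred on its own mean (vertical axis, log2), against the mean level of 17 neutrophil markers (horizontal axis, log2 RMA value), with 1 point per array. WT replicate 3 is lowest on both axes and Lxn-/- replicate 3 highest on both, while Lxn-/- replicate 2 lies at 9.56 on the horizontal axis with the 10 genes at 0.066.

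Each gene centred on its own mean, the 10 genes averaged 0.12, -0.16 and -0.62 in WT and 0.19, 0.066 and 0.41 in Lxn-/-. Within each genotype these means had the same order as the neutrophil markers. Over 6 arrays the Pearson correlation of the means was 0.81 and Spearman's rho 0.89. Since the 10 genes were chosen on these arrays, and both genotypes enter, this describes the arrays and carries no test. Without the 2 arrays farthest from the median of the neutrophil markers, WT replicate 3 and Lxn-/- replicate 2, the Pearson correlation was 0.83 over 4 arrays. Among single genes the correlation over 6 arrays was highest for Nr4a1 (0.91), Atf3 (0.85) and Nr4a2 (0.82) and lowest for Jun (0.58), Egr1 (0.59) and Fos (0.61). That ranking did not hold over the same 4 arrays. There Fos was highest at 0.99, Nr4a2 and Egr1 stood at 0.88, Atf3 at 0.82 and Nr4a1 at 0.75. Jun stood at 0.50, and Junb was lowest at 0.19. Each genotype had too few arrays for a value of its own.

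The neutrophil mean was also used as a covariate in limma, a setting added after the values were seen. The difference adjusted for it was above 0 for 10 of 10 genes, with a median of 0.33. The values were 0.55 for Nr4a1, 0.60 for Nr4a2 and 0.51 for Atf3, and 0.33 for Dusp2, 0.33 for Junb and 0.32 for Ccn1. Fosb stood at 0.35, Egr1 at 0.19, Fos at 0.18 and Jun at 0.097. Whether other cells in the sort contributed RNA of these genes was not tested.

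Among the other marker lists, erythroid markers had the reverse of the order of arrays of the 10 genes within each genotype. They were lower in Lxn-/- for 10 of 10 measured genes. Their mean level was 9.99, 10.13 and 10.52 in WT and 9.89, 10.26 and 9.71 in Lxn-/-, so that WT replicate 3 was highest. The largest differences were those of Gata1 (-0.41), Ermap (-0.40), Klf1 (-0.36) and Slc4a1 (-0.31), and without WT replicate 3 these were -0.066, -0.17, -0.14 and -0.15. The list median of -0.28 was then -0.10. B and plasma cell markers were lower for 14 of 14, with a mean level of 10.36 to 10.82 in WT and 10.16 to 10.33 in Lxn-/-. They were led by Mzb1 (-0.80), Pou2af1 (-0.74), Cd79a (-0.61) and Sdc1 (-0.48), and Cd79a was -0.35 without WT replicate 3. The list median of -0.38 was then -0.32. Their part in the values of the 10 genes was not tested.

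The remaining marker lists had medians between -0.25 and 0.068. Monocyte and dendritic cell markers had a mean level of 9.40 to 9.65 in WT and 9.44 to 9.73 in Lxn-/-, with 8 of 11 higher, -0.41 for Cd74 and 0.24 for Lyz2, the latter 0.052 without WT replicate 3. T and NK cell markers were at 8.12 to 8.43 and 7.96 to 8.87, with 8 of 11 higher, 0.31 for Klrb1c and 0.22 for Ncr1, the latter 0.44 without that pool. For megakaryocyte markers the ranges were 9.16 to 9.32 and 9.16 to 9.44, with 7 of 8 higher and -0.17 for Ppbp. Mast cell and basophil markers were at 8.28 to 8.54 and 7.76 to 8.48, with 2 of 9 higher, a median of -0.25, or -0.14 without that pool, and -0.41 for Prss34, or -0.24 without it. Transcripts of markers outside the gate were at 9.80 to 9.97 and 9.85 to 10.10, with 8 of 10 higher. Within each genotype the mean level of this list had the same order of arrays as the 10 genes, but that order rested on Ly6g. Ly6g, counted here and among the neutrophil markers, was 9.05, 8.25 and 6.71 in WT and 8.68, 6.72 and 10.14 in Lxn-/-. The list is therefore no separate sign of that order. Ly6g differed by 0.51, or -0.13 without WT replicate 3. For LT-HSC markers the median was 0.026 and 10 of 13 were higher, led in size by Gfi1b (-0.14), Meis1 (0.13) and Slamf1 (0.13), and without WT replicate 3 Gfi1b was 0.042 and Slamf1 0.30.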

How the data were processed

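RNA of 6 pools of sorted LT-HSCs was measured on 6 arrays, 3 per genotype. The authors deposited log2 values from RMA, as the design text in the labels states. RMA and Partek 6.0 are named in the submitters' processing notes. The build behind the array's annotation was not known, and no array coordinates are given. Promoter sequences came from RefSeq, build GRCm38.p6. Array medians ran from 7.77 to 7.91. Precision is limited by the number of arrays.

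GEO's platform annotation gave 21789 of 35557 probe sets 1 symbol, 1621 several and 12147 none here. All 23410 with any symbol entered limma 3.58.1 in R 4.3.3 (log2 values as deposited, lmFit and eBayes, no covariates, two-sided, Benjamini-Hochberg, threshold 0.05). SE is limma's moderated standard error. Each gene was represented by the probe set with the highest mean over 6 arrays. The fit was tested on simulated data. The replicate numbers pair nothing in the labels.

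The genes and lists were chosen with earlier results of these data known. Named were the 10 genes, Lxn and measured gate markers, up to 6 genes of largest absolute difference from each immediate early list and up to 4 from each other list, and the 8 most alike profiles.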

Additional observations from a re-analysis of the deposited data

How the results depend on the processing

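The difference between Lxn-/- and WT was above 0 for 10 of 10 genes under every alternative run, and its median ran from 0.17 to 0.47. Other rules for choosing probe sets, and leaving out dim ones, could not change these values. Each of the 10 genes had 1 probe set, with all values above background. Leaving out single arrays gave 0.25 to 0.47 for the 10 genes and 0.067 to 0.16 for the other immediate early genes. The count of genes with no overlap was 3 of 10 and ran from 3 to 8 without single arrays, the 8 without WT replicate 1. Removing an array can only keep or raise this count, so its range does not measure stability. Array weights, the block and the covariate give no overlap count. In limma 0 probe sets passed under each alternative, including the fit with the replicate number as a block. In this balanced design a block leaves every difference as it is, so the median stayed at 0.38. In the labels same-numbered arrays share only a number. The correlations of their deviations were 0.37, -0.072 and -0.081, and those of differently numbered arrays ran from -0.34 to 0.36. Whether same-numbered arrays shared a batch was not tested. Of 28 single immediate early genes over 16 alternatives each, 2 values of 448 moved by more than 1 SD between pools. These were Nr4a2 (0.20) and Plk2 (0.11), both without WT replicate 3 and Lxn-/- replicate 3. With 3 pools per genotype, leaving out 1 pool cannot move a difference that far, and several other alternatives repeat the value with all arrays. Thus Jun, at 0.0056 without WT replicate 3, did not count as moved. The count of moved values therefore does not measure the weight of that pool. Sign changes occurred for 5 genes (Egr2, Egr3, Nab1, Nab2 and Cxcl2). With 3 pools per genotype, 1 pool can set a difference of this size.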
